A study of Mus musculus with 20 samples.

Results

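The cells described here were follicular helper T cells of the cluster that the study named Sostdc1 TFH, divided by the size of the T cell clone to which each belonged. A clone was the set of cells of 1 mouse with 1 shared pair of CDR3 amino acid sequences in the receptor table, and its size was counted over all sorted cells of the mouse, whatever their cluster. Cells of clones with 5 or more cells (expanded) were compared with cells of clones of 1 cell (singletons) inside each mouse. Of 28192 cells with RNA, 2803 belonged to the Sostdc1 cluster and 2178 of these (77.7%) also had a receptor. Of these, 391 were singletons, 377 sat in clones of 2 to 4 cells, and 1410 were expanded, so 1801 cells entered the comparison. All 10 mice held at least 10 cells on each side, with 15 to 67 singletons and 40 to 230 expanded cells per mouse.

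The mice were C57BL/6 bone marrow chimeras of both sexes, made by irradiating recipients and giving them congenic marrow, and all were killed at week 10 after irradiation. The 5 WT chimeras received wild-type marrow alone and were immunized with NP-OVA in alum at week 6. For the non-autoimmune chimeras the methods of the study also give a later booster injection of NP-OVA. In the 5 564Igi chimeras the congenic marrow was mixed with marrow carrying knock-in heavy and light chains of an autoreactive B cell receptor, and the labels give no immunization, so marrow and immunization cannot be told apart as sources of a difference between the conditions. Splenic CD4+CXCR5+PD1+ T cells were sorted, and 1 gene expression and 1 receptor library were made per mouse. The mouse was the replicate throughout.

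Follicular helper T cells give B cells in germinal centres the signals that select and mature antibodies, through CD40 ligand, ICOS and the cytokines IL-21 and IL-4. Sostdc1 encodes a secreted antagonist of BMP and Wnt signalling and marks a subset of these cells. When a T cell proliferates after recognising antigen, its progeny inherit the same rearranged receptor, so the number of cells with 1 receptor is a record of clonal expansion. TFR cells, the regulatory counterpart, express Foxp3 and restrain the germinal centre.

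The cluster carried the markers of its name. Sostdc1 was found in 100% of its cells, against 19.8% ± 4.01 of activated TFH cells and 9.14% ± 1.91 of TFR cells (mean ± SD, n = 10 mice). Median depth was alike, at 3683 UMIs per cell in the Sostdc1 cluster, 3504 in the activated cluster and 3468 in TFR cells. Pdcd1 was found in 89.8% ± 2.93 of Sostdc1 cells and Foxp3 in 4.33% ± 2.28, against 56.0% ± 3.98 for Foxp3 in TFR cells. Markers of other cell types had ranges that overlapped between the sides. The 10 measured B cell markers summed to between 0.125 and 0.723 corrected counts per cell in the expanded cells of a mouse and to between 0.0556 and 0.517 in its singletons, with Ebf1 at 0 on both sides. The 7 myeloid markers summed to between 0.433 and 0.732 in expanded cells and to between 0.450 and 0.800 in singletons, with Csf1r, C1qa, C1qb and S100a9 at 0 on both sides. The 7 invariant NKT markers summed to between 0.811 and 1.28 and to between 0.611 and 1.18, with Zbtb16 and Tyrobp at 0 on both sides. The 4 erythroid markers did not exceed 0.0336 in expanded cells and 0.0556 in singletons, and the 1 measured CD8 marker did not exceed 0.0972 and 0.137.

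The 1410 expanded cells came from 468 clones, of which 200 had a single cell in the cluster, 195 had 2 to 4 and 73 had 5 or more. The median size of these clones over all clusters was 10 cells and the largest held 226. The clone with the most Sostdc1 cells in a mouse contributed 5 to 35 of its expanded Sostdc1 cells, which was 8.15% to 23.9% of them. The CDR3 sequences of the 4 clones with the most cells in the cluster are given here because they are the receptors that weigh most in the comparison; 564Igi mouse 4 held another clone with 20 cells in the cluster. Capitals mark the bases between the first 4 and the last 4 codons. This is a fixed rule, and the joins of the V, D and J segments were not mapped.
WT mouse 5, 35 cells in the cluster of 105 in the clone, alpha, TRAV4-4-DV10 and TRAJ43: tgtgctgcttacAACAATgccccacgattt
WT mouse 5, the same clone, beta, TRBV26 and TRBJ2-3: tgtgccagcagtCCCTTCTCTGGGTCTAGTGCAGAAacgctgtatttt
WT mouse 5, 34 cells in the cluster of 56 in the clone, alpha, TRAV4-3 and TRAJ30: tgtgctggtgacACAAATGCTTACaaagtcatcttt
WT mouse 5, the same clone, beta, TRBV13-1 and TRBJ1-2: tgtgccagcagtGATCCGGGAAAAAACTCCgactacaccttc
564Igi mouse 5, 22 cells in the cluster of 79 in the clone, alpha, TRAV7-3 and TRAJ13: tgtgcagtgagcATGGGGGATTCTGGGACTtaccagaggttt
564Igi mouse 5, the same clone, beta, TRBV13-1 and TRBJ2-2: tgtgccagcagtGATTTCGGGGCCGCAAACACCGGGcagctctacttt
564Igi mouse 1, 20 cells in the cluster of 102 in the clone, alpha, TRAV12D-3 and TRAJ47: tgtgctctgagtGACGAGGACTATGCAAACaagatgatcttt
564Igi mouse 1, the same clone, beta, TRBV5 and TRBJ2-5: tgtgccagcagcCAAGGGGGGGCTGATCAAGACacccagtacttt

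Expanded Sostdc1 clones were rarely found among the expanded Sostdc1 cells of a second mouse. Smaller clones and other clusters of the other mice were not searched for the same pairs. By amino acids, 2 of them were found expanded in 2 mice, each time in 2 mice of the same condition, and in both cases the nucleotide sequences differed between the mice by 1 base in the alpha chain and by 2 bases in the beta chain. They are shown so that the coding of 1 amino acid pair can be compared base by base between mice. Capitals mark the bases that differ between the 2 mice.
564Igi mouse 2, clone of 131 cells, alpha, TRAV4D-4 and TRAJ22: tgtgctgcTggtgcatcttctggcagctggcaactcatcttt
564Igi mouse 4, clone of 25 cells, alpha, TRAV4D-4 and TRAJ22: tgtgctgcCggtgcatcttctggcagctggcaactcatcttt
564Igi mouse 2, the same clone, beta, TRBV13-1 and TRBJ2-7: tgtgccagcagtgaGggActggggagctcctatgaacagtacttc
564Igi mouse 4, the same clone, beta, TRBV13-1 and TRBJ2-7: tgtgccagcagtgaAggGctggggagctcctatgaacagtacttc
WT mouse 4, clone of 7 cells, alpha, TRAV16 and TRAJ34: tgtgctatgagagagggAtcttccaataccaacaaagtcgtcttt
WT mouse 5, clone of 7 cells, alpha, TRAV16 and TRAJ34: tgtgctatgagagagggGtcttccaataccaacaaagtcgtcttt
WT mouse 4, the same clone, beta, TRBV3 and TRBJ2-3: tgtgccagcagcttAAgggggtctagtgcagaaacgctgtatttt
WT mouse 5, the same clone, beta, TRBV3 and TRBJ2-3: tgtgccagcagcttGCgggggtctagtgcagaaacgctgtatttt

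The Sostdc1 cluster held a larger share of cells in expanded clones than the activated and TFR clusters in all 10 mice. In WT mice 1 to 5, 63.2%, 75.3%, 80.4%, 71.6% and 71.0% of receptor-bearing Sostdc1 cells were in expanded clones. In 564Igi mice 1 to 5 the shares were 59.4%, 51.3%, 56.8%, 66.1% and 44.7%. The 95% Wilson intervals of these shares, which cover counting error only, spanned 9.90 to 21.7 percentage points. They treat cells as independent, but all cells of a clone are expanded or not together, so the intervals can be too narrow. The highest 564Igi share lay above the lowest WT share, and the other 4 WT mice lay above all 564Igi mice.

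Against activated TFH cells of the same mouse, the share was higher by 10.8 ± 7.59 percentage points (mean ± SD, n = 10), from 2.37 to 25.3 (exact two-sided sign-flip permutation test over mice, p = 0.00195, adjusted p = 0.00293 over the 3 share comparisons). Against TFR cells it was higher by 20.9 ± 10.6 points, from 7.23 to 37.9 (same exact test, p = 0.00195, adjusted p = 0.00293). That p is the smallest that 10 mice can give. A clone that spans clusters counts in each of them, so the shares of 1 mouse are not independent.

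The share was lower in 564Igi than in WT Sostdc1 cells, with means of 55.6% ± 8.13 and 72.3% ± 6.32 (SD, n = 5 each), a difference of -16.6 percentage points (exact permutation test, two-sided, p = 0.0159, adjusted p = 0.0159). Clone sizes depend on how many cells were recovered, and 2597 to 4695 receptor-bearing cells per WT mouse stood against 2047 to 4022 per 564Igi mouse. The part of this in the difference was not tested. Among activated cells of the same mice the difference was -3.74 points and among TFR cells 1.10 points (exact permutation p = 0.444 and 0.881, chosen after the values were seen).

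**Figure D1:**
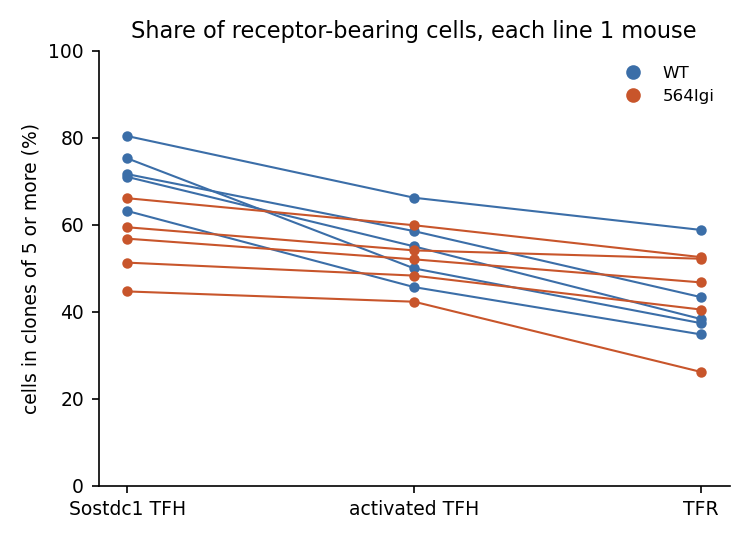
Percent of receptor-bearing cells in clones of 5 or more cells (vertical axis) in the Sostdc1, activated and TFR clusters, with 1 line for each of 5 WT (blue) and 5 564Igi (orange) mice. Every line falls from Sostdc1 to activated to TFR, from a mean of 64.0% to 53.2% and 43.1%.

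The same clones reached into other clusters. Of 6283 cells with RNA in the 468 expanded clones, 22.4% lay in the Sostdc1 cluster, 55.7% in the activated cluster and 19.1% in the TFR cluster. Members in the activated cluster were found for 421 of the 468 clones (90.0%) and members in the TFR cluster for 239 (51.1%), while 5 clones had all their RNA-profiled cells in the Sostdc1 cluster.

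Out of 7177 genes tested between expanded and singleton Sostdc1 cells, 2 were called: S100a6 was higher and Tmsb10 lower in expanded clones. That is 0.0279% of the genes, 0.0139% in each direction. At an unadjusted p below 0.05 there were 443 genes (6.17%), of which 131 (1.83%) were higher and 312 (4.35%) lower in expanded cells. Levels are means over cells of log2(corrected count + 1), where the corrected count is the UMI count adjusted by the authors to a common depth. Differences are expanded minus singleton within a mouse, tested across all genes with limma on the 10 mouse differences. Calls required a difference of more than 0.1 in size and an adjusted p (Benjamini-Hochberg) under 0.05.

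S100a6 (ENSMUSG00000001025, GRCm38 chr3:90612882-90624181, plus strand, protein coding) encodes a small EF-hand calcium-binding protein and was among the genes by which the study annotated its activated TFH cluster. In singletons its level was 1.14, 0.84, 1.08, 1.53 and 1.90 in WT mice 1 to 5 and 1.29, 1.74, 1.95, 1.76 and 1.48 in 564Igi mice 1 to 5. In expanded cells it was 1.92, 1.64, 1.55, 2.15 and 2.31 in the WT mice and 1.95, 2.21, 1.79, 2.03 and 1.63 in the 564Igi mice. Expanded cells were higher in 9 of 10 mice, the exception being 564Igi mouse 3, although the 2 sides overlapped between mice. The mean was 1.92 ± 0.26 in expanded and 1.47 ± 0.38 in singleton cells (SD, n = 10), a difference of 0.45 with a standard error of 0.07 (limma, adjusted p = 0.000665), or 5.08 against 3.50 corrected counts per cell. Taken alone, the 10 differences of S100a6 gave an exact two-sided sign-flip permutation p of 0.00586. The call was lost in limma without the trend of variance on level (adjusted p = 0.196), without the filter on rarely found genes (adjusted p = 0.560 by limma) and without pairing the sides of a mouse (limma, adjusted p = 0.997).

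The level of S100a6 rose over the clone size classes, from 1.47 ± 0.38 in singletons to 1.66 ± 0.32 in clones of 2 to 4, 1.83 ± 0.39 in clones of 5 to 9 and 1.91 ± 0.36 in clones of 10 or more (SD over 10 mice; a description without a test). Means of individual clones spread more widely than the classes. Clone means rested on as few as 5 cells, and the part of cell sampling in this spread was not tested. Among the 73 clones with 5 or more cells in the cluster, the clone mean ran from 0.20 to 3.90 with quartiles at 1.15 and 2.68, and 49 clones (67.1%) lay above the singleton mean of their mouse. The clone with the most cells in the cluster lay above the singletons in 5 of 10 mice, and the remaining expanded cells did so in 9 of 10. When each clone counted once, the difference was 0.31 and was not called (limma, adjusted p = 0.508).

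Activated TFH cells had more S100a6 than Sostdc1 cells on both sides, at 2.21 in expanded and 1.89 in singleton cells. The same contrast gave 0.32 ± 0.29 in activated cells and 0.39 ± 0.12 in TFR cells (mean ± SD of 10 mice), higher in all 10 mice of each. The difference between the Sostdc1 and activated contrasts was 0.13 with a 95% interval of -0.03 to 0.28 (limma, adjusted p = 0.763), and that between Sostdc1 and TFR was 0.05 with an interval of -0.09 to 0.19 (limma, adjusted p = 0.928). Other S100 genes, picked after their values were seen, were not called: S100a4 differed by 0.04, S100a10 by -0.04 and S100a11 by 0.07 (limma, adjusted p = 0.875, 0.945 and 0.879).

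Tmsb10 (ENSMUSG00000079523, GRCm38 chr6:72957347-72958748, minus strand, protein coding) encodes thymosin beta 10, a small peptide that binds actin monomers. It was found in 100% of cells. In singletons its level was 5.10, 4.89, 5.15, 5.07 and 4.77 in WT mice 1 to 5 and 5.08, 4.87, 4.56, 4.89 and 4.86 in 564Igi mice 1 to 5. In expanded cells it was 4.70, 4.55, 5.04, 4.89 and 4.71 in the WT mice and 4.77, 4.72, 4.50, 4.90 and 4.93 in the 564Igi mice. Expanded cells were lower in all 5 WT mice and in 3 of the 5 564Igi mice. The mean fell from 4.92 ± 0.18 to 4.77 ± 0.17 (SD, n = 10), a difference of -0.15 with a standard error of 0.03 (limma, adjusted p = 0.00412), or 28.5 against 31.6 corrected counts per cell. Taken alone, the 10 differences of Tmsb10 gave an exact two-sided sign-flip permutation p of 0.0156. The same 3 changes of the fit ended the Tmsb10 call (limma, adjusted p = 0.655, 0.755 and 0.997), as did 10 or more cells as expanded, clone size from Sostdc1 cells alone, stricter thresholds, both other scales and 564Igi mice alone. In activated cells the same contrast gave -0.14 and in TFR cells -0.07, lower in 9 of 10 mice of each, and neither differed from that of Sostdc1 cells past the threshold (limma, adjusted p = 0.955 and 0.613).

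By clone size, Tmsb10 was 4.92 ± 0.18 in singletons, 4.79 ± 0.17 in clones of 2 to 4, 4.77 ± 0.19 in clones of 5 to 9 and 4.78 ± 0.19 in clones of 10 or more. The singleton mean was the highest and the other class means were within 0.02 of each other. Mouse values overlapped, from 4.56 to 5.15 in singletons and from 4.50 to 5.09 in clones of 10 or more (a description without a test). Its paralogue Tmsb4x, named after its values were seen, differed by 0.02 (95% interval -0.03 to 0.07; limma, adjusted p = 0.914). The Tmsb10 call was lost without WT mouse 1, WT mouse 2 or 564Igi mouse 1 (limma, adjusted p = 0.0555, 0.0851 and 0.0923). S100a6 remained called in each fit without 1 mouse, with adjusted p from 2.13e-05 to 0.0130.

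**Figure D2:**
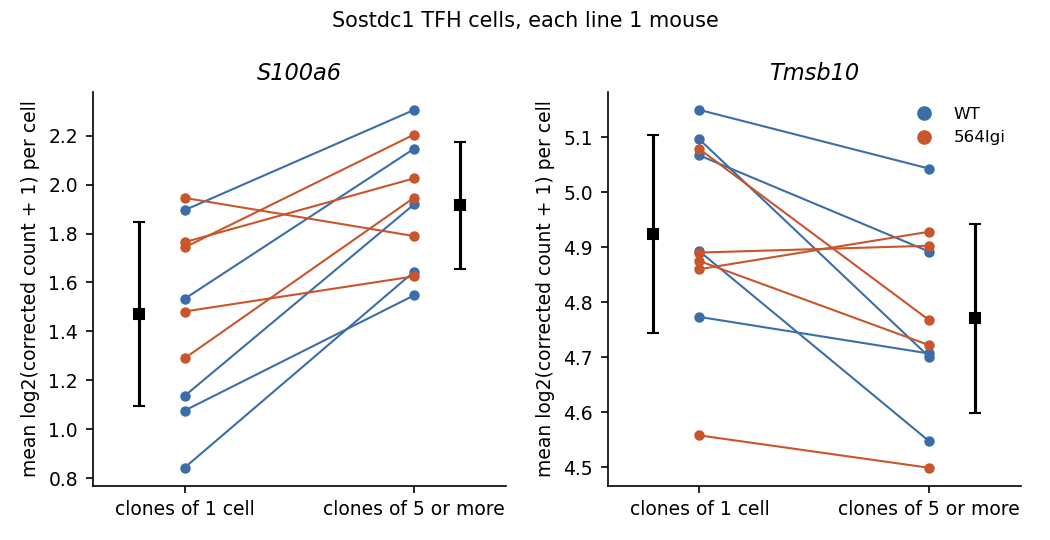
Mean log2(corrected count + 1) per cell (vertical axes) of S100a6 and Tmsb10 in singleton and expanded Sostdc1 cells, with 1 line per mouse (blue WT, orange 564Igi) and black squares with bars for the mean and SD of 10 mice. S100a6 climbs in all mice but 1, from a mean of 1.47 to 1.92, and Tmsb10 falls in 8 of 10.

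**Figure D3:**
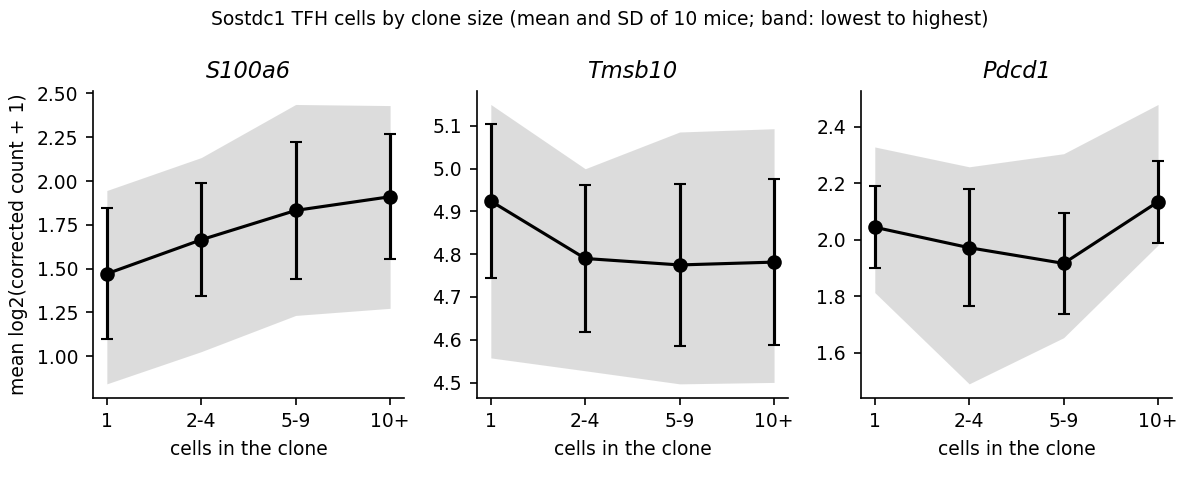
Mean log2(corrected count + 1) of S100a6, Tmsb10 and Pdcd1 in Sostdc1 cells (vertical axes) by the number of cells in the clone (horizontal axes), with points and bars for the mean and SD of 10 mice and a grey band from the lowest to the highest mouse. S100a6 is higher in each larger class (1.47, 1.66, 1.83, 1.91), while Tmsb10 drops between clones of 1 and clones of 2 to 4 cells.

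None of the 19 genes of TFH identity was called between expanded and singleton cells, beside 0.0279% of all genes. At an unadjusted p below 0.05 there were 4 of them, Icos higher and Bcl6, Tcf7 and Izumo1r lower in expanded cells, beside 6.17% of all genes. Of the 19 differences 11 were positive and 8 negative, beside 39.2% positive over all 7177 genes. Their median was 0.00, beside -0.01 over all genes. Pdcd1, which encodes the inhibitory receptor PD-1 used in the sort, was 2.08 ± 0.11 in expanded and 2.04 ± 0.15 in singleton cells, a difference of 0.03 with a 95% interval of -0.09 to 0.16 (limma, adjusted p = 0.947). Cxcr5, the chemokine receptor that draws T cells into follicles, differed by -0.03 (interval -0.12 to 0.06, adjusted p = 0.930 by limma). Bcl6, the transcription factor required for the lineage, differed by -0.06 (interval -0.11 to -0.0026) and was lower in 8 of 10 mice (limma, adjusted p = 0.774). Icos, the costimulatory receptor, differed by 0.16 (interval 0.05 to 0.26) and was higher in 8 of 10 mice (limma, adjusted p = 0.635). Sostdc1 itself differed by 0.11 (interval 0.03 to 0.18; limma, adjusted p = 0.686), in a cluster where every cell had it.

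Of 10 tested genes for cytokines and ligands of B cell help, none was called and the median difference was -0.01. Il21 differed by 0.05 (95% interval -0.02 to 0.11) and Cd40lg, the ligand of CD40 on B cells, by 0.07 (-0.02 to 0.16). Il4 differed by -0.08 (-0.15 to -0.01) and was lower in 8 of 10 mice (limma, adjusted p = 0.747). Tnfsf8, which encodes CD30 ligand, differed by 0.25 (0.10 to 0.39) and missed the threshold (limma, adjusted p = 0.460). The study named it as a gene of activated TFH cells. Here it was found in 77.0% ± 5.96 of Sostdc1 cells and 63.5% ± 5.20 of activated cells (mean ± SD of 10 mice).

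Tnfsf8 differed in its pattern between the conditions. In WT mice 1 to 5 it went from 1.15, 0.88, 0.79, 0.79 and 1.30 in singletons to 1.88, 1.51, 1.25, 1.32 and 1.64 in expanded cells, higher in 5 of 5. In 564Igi mice 1 to 5 it went from 1.26, 1.91, 1.87, 1.56 and 1.47 to 1.45, 1.73, 1.59, 1.45 and 1.62, higher in 2 of 5. In the 564Igi mice the singletons spanned 1.26 to 1.91 and the expanded cells 1.45 to 1.73, so the sides overlapped. The mean difference was 0.54 ± 0.15 in WT and -0.05 ± 0.20 in 564Igi mice (SD, n = 5 each), and the difference between the conditions was -0.58 with a standard error of 0.12 (limma, adjusted p = 0.0603), short of the threshold. Without 564Igi mouse 1 it was -0.64 and was called (limma, adjusted p = 0.0367), and without 564Igi mouse 5 it was -0.63 and was called (adjusted p = 0.0478 by limma).

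No gene was called for a different expanded-minus-singleton contrast in 564Igi and WT mice (0 of 7177, 0.0%), with 378 genes (5.27%) at an unadjusted p below 0.05 by limma. S100a6 gave 0.62 ± 0.18 in WT, higher in 5 of 5 mice, and 0.27 ± 0.31 in 564Igi mice, higher in 4 of 5, with a difference of -0.34 (95% interval -0.61 to -0.08; limma, adjusted p = 0.839). Tmsb10 gave -0.22 ± 0.15 and -0.09 ± 0.15 (difference 0.13, interval 0.03 to 0.23; limma, adjusted p = 0.861). Ly6a, which encodes the surface protein Sca-1, gave 0.34 in WT, higher in 5 of 5 mice, and 0.03 in 564Igi mice (limma, adjusted p = 0.839).

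**Figure D4:**
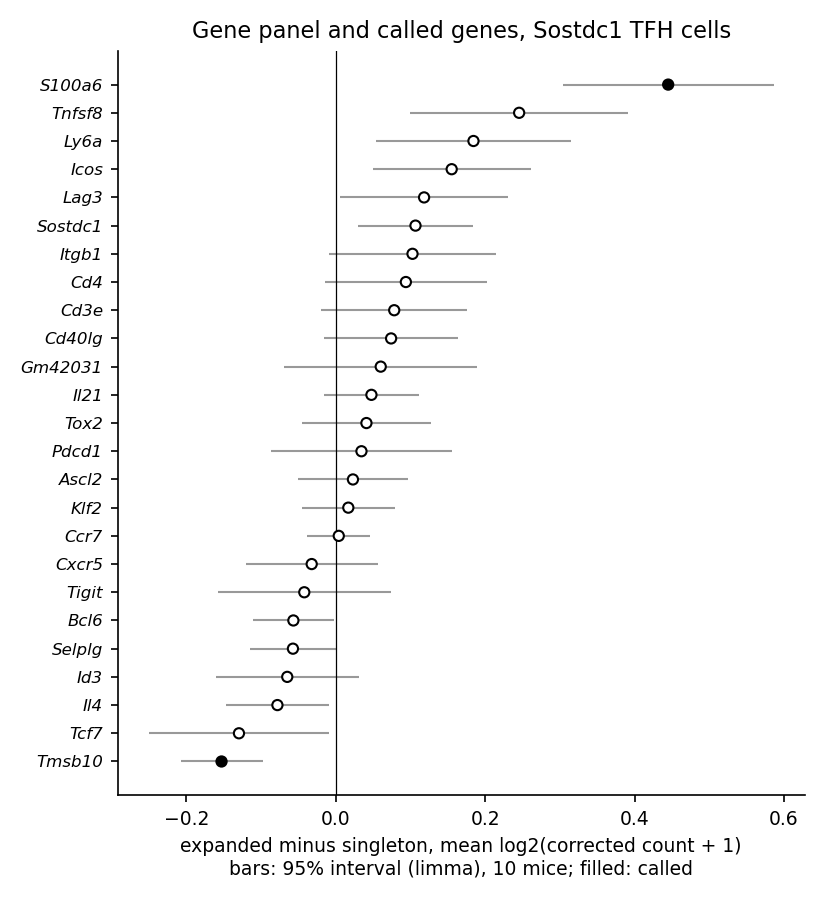
Expanded minus singleton difference in mean log2(corrected count + 1) (horizontal axis) for the 23 tested genes of the panel and the 2 called genes in Sostdc1 cells, with 95% intervals from limma over 10 mice and filled points for called genes. S100a6 at 0.45 and Tmsb10 at -0.15 lie at the ends, and among the uncalled genes the intervals of Pdcd1 and Cxcr5 include 0 while those of Tnfsf8, Ly6a, Icos, Sostdc1, Lag3, Bcl6, Selplg, Il4 and Tcf7 do not.

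The other gene groups also held no called member, against 0.0279% called over all genes. The 18 listed TCR signal genes, which report recent receptor stimulation, had 13 tested with a median of 0.00. The 8 tested inhibitory receptor and ectoenzyme genes had a median of 0.01, with Lag3 at 0.12 (limma, adjusted p = 0.774). The 13 tested BMP and Wnt genes had a median of 0.00, and Tcf7, the Wnt-responsive factor of resting and memory T cells, differed by -0.13 and was lower in 7 of 10 mice (limma, adjusted p = 0.772). The 9 tested memory and lymph node homing genes had a median of -0.04, and 6 of 9 were negative, beside 60.8% of all genes. Foxp3 was found in too few cells to be tested.

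The 15 tested adhesion and positioning genes had a median of 0.01. Cd9, a tetraspanin, differed by 0.14 and was higher in 10 of 10 mice (limma, adjusted p = 0.460). The 17 tested interferon-stimulated genes had a median of -0.00458 and the 7 tested Treg markers one of -0.04. The 14 tested glycolytic genes had a median of 0.04 and were positive in 11, beside 39.2% of all genes, which was not tested. The 14 tested proliferation genes had a median of -0.01, in cells from which the study had removed those with high cycling scores.

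The medians of the remaining lists were 0.03 for 9 heat shock genes, -0.03 for 8 immediate early genes, 0.01 for 8 survival and death genes and 0.02 for 4 cytotoxic granule and chemokine genes. Of the 12 genes that the study named for clone size on these samples, 10 were tested and none was called. Of these 10, 9 were negative, beside 60.8% of all genes, and the median was -0.05. Hcst, an adaptor of activating receptors, was the furthest at -0.19 (limma, adjusted p = 0.690). Because the study chose the listed genes on these samples, this count is not independent evidence of a direction. The study also gave them unlike directions and for unlike sets of cells. It reported Pdcd1 as rising with clone size over all cells, Ikzf2 and Tigit as rising in TFR cells, and Selplg as falling. The count of negative genes is therefore no comparison with the directions of the study. The 81 tested ribosomal protein genes had a median of -0.02, with 58 negative beside 60.8% of all genes, and the 13 mitochondrially encoded genes one of -0.03.

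Few genes moved the same way in every mouse: 5 were higher in all 10 mice (0.0697% of those tested) and 14 lower (0.195%), none of them called. The 5 higher were Gna13, Rtn4, Cd9, Atm and Ms4a6c. Gna13, a G protein alpha subunit that restrains migration and survival of germinal centre B cells, differed by 0.15 (limma, adjusted p = 0.460), and Atm, the DNA damage kinase, by 0.07 (adjusted p = 0.475 by limma). Among the 6 lower genes with the smallest p, Gpsm3, a regulator of G protein signalling, differed by -0.19 (limma, adjusted p = 0.460) and Phgdh, the first enzyme of serine synthesis, by -0.09 (limma, adjusted p = 0.412). Srpk1, Saysd1, C1galt1c1 and Gm49396 differed by between -0.11 and -0.05. Over all genes, 39.2% of the differences were positive and 81 exceeded 0.1 in size. The 95% interval lay within 0.25 of 0 for 99.6% of genes and within 0.1 of 0 for 78.2%. On this scale a gene found in few cells has little room to differ, so a narrow interval can hold a large fold change. Atm, at 0.07, had 1.83 times the corrected count of singletons in expanded cells, and Phgdh, at -0.09, had 0.508 times.

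Set against activated TFH cells, the expansion contrast of Sostdc1 cells differed in 2 of 7177 genes (0.0279%, 0.0139% in each direction), with 521 genes (7.26%) at an unadjusted p below 0.05. It was higher for Vim and lower for Srgn. Vim (GRCm38 chr2:13573927-13582826, plus strand) encodes the intermediate filament protein vimentin. In Sostdc1 cells its expanded minus singleton difference was 0.52, 0.30, -0.10, 0.16 and -0.01 in WT mice 1 to 5 and 0.28, 0.04, -0.25, 0.14 and 0.02 in 564Igi mice 1 to 5. In activated cells it was -0.09, -0.13, -0.46, -0.36 and -0.48 in the WT mice and 0.12, -0.36, -0.11, -0.13 and -0.13 in the 564Igi mice. Expanded activated cells thus had less Vim than singletons in 9 of 10 mice, and expanded Sostdc1 cells had more in 7 of 10. The 2 contrasts differed by 0.32 with a standard error of 0.05 (limma, adjusted p = 0.00291).

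Srgn (GRCm38 chr10:62493833-62527451, minus strand) encodes serglycin, a proteoglycan of secretory granules. Its difference in Sostdc1 cells lay between -0.28 and 0.37 with a mean of 0.08 and was positive in 9 of 10 mice. In activated cells it was positive in all 10 mice, with a mean of 0.41 ± 0.15. The 2 contrasts differed by -0.32 with a standard error of 0.06 (limma, adjusted p = 0.0141), and the call was lost without WT mouse 4, WT mouse 5 or 564Igi mouse 4 (limma, adjusted p = 0.125, 0.107 and 0.0925). Vim remained called in each fit without 1 mouse.

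Pdcd1 gave 0.36 ± 0.22 in activated cells, higher in 10 of 10 mice, and 0.25 ± 0.12 in TFR cells, also in 10 of 10. In Sostdc1 cells it gave 0.03 ± 0.14. Singletons were at 2.04 in Sostdc1 cells and at 1.33 in activated cells, and the part of this level in the contrast was not tested. The difference between the Sostdc1 and activated contrasts was -0.33 and missed the threshold (limma, adjusted p = 0.0567). Izumo1r, the TFH and Treg folate receptor 4, stood at the same adjusted p with -0.35 and is named here after its values were seen. Without WT mouse 1 both were called (limma, 11 genes in all), and without 564Igi mouse 1 likewise (limma, 7 genes). Without 564Igi mouse 5, Pdcd1 was called (limma, adjusted p = 0.0345, 4 genes in all). The Sostdc1 and TFR contrasts differed in 0 of 7177 genes (0.0%) by limma, with 461 (6.42%) at an unadjusted p below 0.05. Tnfsf8 and Ikzf2, a transcription factor of regulatory T cells, were the nearest of the named genes at the same adjusted p. Tnfsf8 gave 0.25 in Sostdc1 cells, -0.04 in TFR cells and a difference of 0.29, and Ikzf2 gave a difference of -0.29 (limma, adjusted p = 0.0835 for each). The count rose to 5 without WT mouse 3, to 3 without 564Igi mouse 1, to 3 without 564Igi mouse 5 and to 1 without WT mouse 1.

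**Figure D5:**
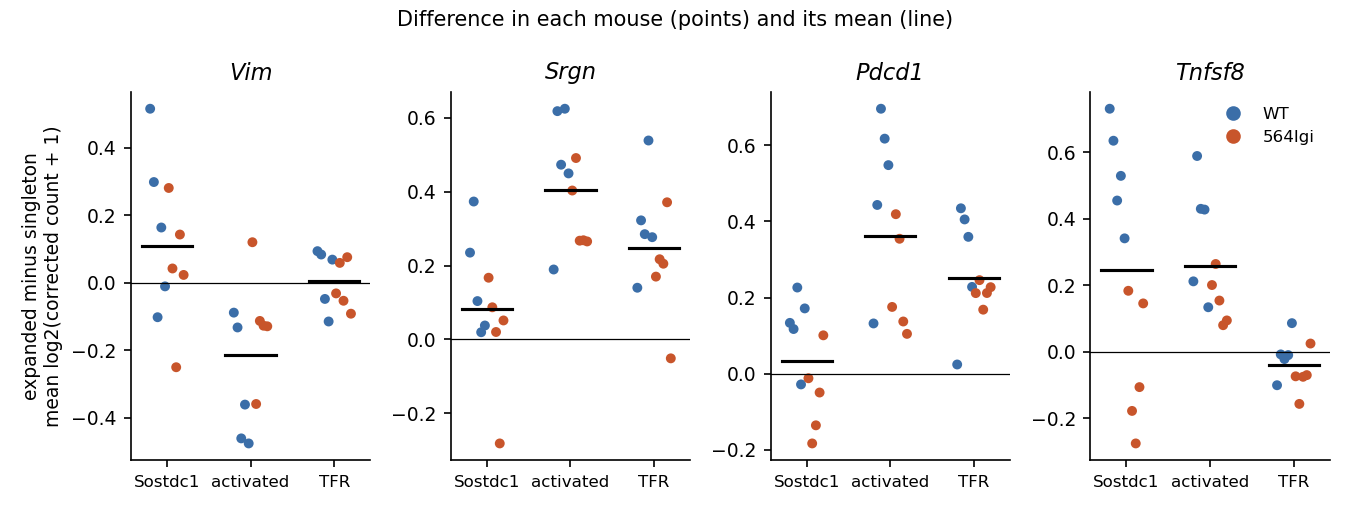
Expanded minus singleton difference in mean log2(corrected count + 1) (vertical axes) of Vim, Srgn, Pdcd1 and Tnfsf8 in the Sostdc1, activated and TFR clusters, with 1 point per mouse (blue WT, orange 564Igi) and a line at the mean of 10 mice. Vim is on average 0.11 in Sostdc1 and -0.21 in activated cells, and Pdcd1 is 0.03 against 0.36.

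None of 8 measures of cell quality passed the test between the sides. Expanded cells had a median of 3697 ± 489 UMIs and singletons 3915 ± 605 (mean ± SD of 10 mouse medians), lower in 7 of 10 mice (exact sign-flip permutation p = 0.0488, adjusted p = 0.135 over 8 measures). Ribosomal small subunit transcripts made up 9.55% ± 0.459 and 9.84% ± 0.686 of UMIs (exact sign-flip permutation p = 0.0957, adjusted p = 0.153). The S phase score was -0.06 and -0.07, higher in 7 of 10 mice (exact sign-flip permutation p = 0.0215, adjusted p = 0.135). With cells matched in depth, S100a6 differed by 0.48 and Tmsb10 by -0.19, both called (limma, adjusted p = 0.000917 and 0.00145).

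Receptor features showed 1 difference, and it lay in how the table lists receptors. Each cell lists 2 CDR3 sequences, and in some cells both are of the same chain: 5.74% of expanded cells (81 of 1410) and 16.4% of singletons (64 of 391), lower among expanded cells in 10 of 10 mice (exact sign-flip permutation p = 0.00195, adjusted p = 0.0117 over 6 measures). Such a listing can make a member of a larger clone count as a singleton. Among all 391 singletons, whatever their listing, 129 (33.0%) carried at least 1 chain of a clone of 5 or more cells in the same mouse. It was the beta CDR3 in 62 and the alpha CDR3 in 87. A shared chain is not a shared pair, and how many of these singletons belonged to such a clone was not tested. Without the cells that list 1 chain only, S100a6 differed by 0.48 and Tmsb10 by -0.17, both called (limma, adjusted p = 0.00428 and 0.0112).

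Counting each clone once, the length of the beta CDR3 differed by -0.0135 residues between expanded and singleton clones and that of the alpha CDR3 by -0.171 residues, from means of 13.5 ± 0.203 and 13.7 ± 0.418, and neither passed the test (exact sign-flip permutation p = 0.924 and 0.293). The median receptor UMI count per cell was 15.8 ± 3.58 in expanded and 13.8 ± 3.55 in singleton cells (exact sign-flip permutation p = 0.0234, adjusted p = 0.0703). TRBV12-2 was the most used beta V gene on both sides, in 11.5% of 442 expanded clones and 14.1% of 327 singletons. An invariant NKT receptor was listed in 0 of 468 expanded clones, which allows a share of up to 0.641% of clones, and in 1 of 391 singletons, and a MAIT receptor in 0 cells of either side, which allows up to 0.767% of singletons.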

How the data were processed

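Gene expression and T cell receptor libraries of 10 mice were read from tables deposited by the authors. Per the labels and the methods, reads were processed with Cell Ranger 4.0.0 against GRCm38 and analysed with Seurat 3.1.4. The deposited expression values were the natural log of corrected counts + 1 from a variance-stabilising regression run separately per condition, and undoing the log gave whole counts for every value (tolerance 1e-06). The authors removed receptor genes and cells with cycling scores above 0.15; no removal of doublets is stated and none was made here. Cluster names, percent and score columns of the cell table, and UMI counts are the deposited values of the authors. Barcodes were matched within libraries; 491 barcodes occurred in more than 1 RNA library, and 55 expanded and 17 singleton cells carried such a barcode.

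Per mouse, log2(corrected count + 1) was averaged over the cells of each side. Genes found in at least 5% of the compared cells in at least 5 of the 10 mice (7177 of 13798) were tested with limma 3.58.1 (R 4.3.3) on the differences, with a trend on mean level. The sides come from the same animals, and their deviations from the condition mean correlated by 0.18 to 0.46 within a mouse (median 0.31 over 7177 genes). On simulated data made from this comparison, 65.7% of genes changed by 0.12 were recovered, 98.3% at 0.24 and 100% at 0.48. In the simulation many genes changed at once by the same size, with independent noise. Recovery can be lower where few genes change, so these rates do not carry over to the measured comparison. Shares, quality and receptor values were tested by exact permutation over mice. Alternatives covered clone definition, size limits, scale, filter, depth matching and leaving out each mouse. Both sequences listed for a cell are of 1 chain in 2704 of 33833 receptor cells. Mouse numbers 1 to 5 within a condition follow the order of the deposited samples. Permutation p-values rest on the values of the mice alone. Those of limma, with its standard errors and intervals, combine the spread between mice with the variance of other genes of like level. They can therefore be smaller than the mouse differences of 1 gene alone would give.

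The genes named are called genes, the 6 smallest p in each direction among genes of 1 sign in every mouse, a panel of 25 genes, called list members, the genes the study named for clone size, and called genes of the other comparisons. Members and lists were chosen with earlier results of these data known.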

Additional observations from a re-analysis of the deposited data

Results flagged for a closer look

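The lead of Sostdc1 cells over activated cells in the share of cells in expanded clones differed between the conditions. It was 13.1 to 25.3 percentage points in WT mice and 2.37 to 6.21 in 564Igi mice, without overlap, a difference of -12.9 points (exact permutation test, p = 0.00794, the smallest that 5 against 5 can give). The lead over TFR cells was 21.6 to 37.9 points in WT and 7.23 to 18.5 in 564Igi mice, a difference of -17.7 points (exact permutation test, p = 0.00794). Both tests were chosen after the values were seen, and WT mice were also the immunized ones, so the conditions cannot be separated from immunization.

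The expansion contrast differed between Sostdc1 and activated cells for Vim, by 0.32 (limma, adjusted p = 0.00291), and for Srgn, by -0.32 (limma, adjusted p = 0.0141).

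Among 68 sets of 10 mouse differences, 6 had 1 mouse far from the others by Dixon's test, which flags about 1 in 20 by chance. The mouse was 564Igi mouse 2, which had the fewest cells, for Atm (0.16), Itgb1 (0.74) and the percent of invariant NKT receptors (-5.56 percentage points, from 1 singleton). It was WT mouse 4 for Ikzf2 (-0.49), WT mouse 2 for Phgdh (-0.30) and WT mouse 1 for Saysd1 (-0.31).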

How the results depend on the processing

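The 2 genes called between expanded and singleton cells became 0 without the replicate block that pairs the sides of a mouse, without the trend in limma, without the filter, with clone size counted from Sostdc1 cells alone and in 564Igi mice alone. They became 1 at stricter thresholds, with 10 or more cells as expanded, with a mean over clones and on both other scales, the remaining call being Tmsb10 for the mean over clones and S100a6 for the others. They became 5 in a fit chosen after the data were seen, which left out the 225 singletons with a chain listed elsewhere in the mouse and kept 7 mice. The count was 1 to 2 without 1 mouse each, the 1 being S100a6. WT mice alone gave 3 (S100a6, Tnfsf8 and Tmsb10). For Sostdc1 against activated cells, the 2 calls became 4 without the trend, 0 without the filter, 1 with 2 or more cells as expanded and 1 to 11 without 1 mouse each. The counts of 0 for 564Igi against WT and for Sostdc1 against TFR were 0 to 1 and 0 to 5 without 1 mouse each, and 0 under the other alternatives run. The difference in receptor UMIs passed with 2 or more cells as expanded (2.10) and ranged from 1.78 to 2.50 without 1 mouse. The 3 share comparisons kept their direction and stayed past the threshold under all alternatives run, and no called value changed sign. The cause of each change was not tested. Small singleton groups, 15 to 67 cells per mouse, limit the precision of every difference.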
